A study of Mus musculus with 9 samples.

Results

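The genes described here are 9 members of the pathway that runs from the cytokine LIF through the receptor subunit gp130 to the transcription factor STAT3. They are the ligand Lif, the receptor genes Lifr, Il6st (which encodes gp130) and Osmr, the kinase Jak1, the transcription factor Stat3, the inhibitor Socs3, and the STAT3 targets Pim1 and Gbx2. They were chosen by symbol, with earlier results of these data known, and all 9 were found among 54232 gene rows. RNA was measured in 9 libraries of wild-type mouse embryonic stem cells that had been put through embryoid body differentiation, in which the cells are grown as aggregates and begin to form the early tissues of the embryo. The 3 groups, with 3 libraries each, are labelled EBD2, EBD5 and EBD6. All 3 share the wild-type genotype and the stem cell source, and differ only in the differentiation label. Nothing in the labels explains the number in the group name, or says whether LIF was in the medium, which strain, sex or clone the cells came from, or whether replicates were separate cultures. P-values therefore measure only the spread between these libraries, which may be technical.

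LIF binds the LIF receptor, which pairs with gp130; Janus kinases bound to the receptors then phosphorylate STAT3, which enters the nucleus and switches on target genes. Mouse embryonic stem cells are commonly cultured with LIF because active STAT3 helps to hold them in the naive pluripotent state. SOCS3 is made in response to STAT3 and shuts the receptor complex down, so its messenger RNA is often read as an output of the pathway. Oncostatin M signals through the same gp130 chain with its own receptor, OSMR, as partner. Messenger RNA levels, which are all that was measured here, do not show phosphorylation of STAT3.

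Library totals ranged from 5453399 to 11703388 counts. EBD2 replicates 1 and 2, and EBD6 replicates 2 and 3, agreed within the sampling noise of their counts and were each counted as 1 sample, so that means ± SD rest on n = 2 samples in EBD2, n = 3 in EBD5 and n = 2 in EBD6. The EBD5 libraries stood apart: nuclear ribosomal RNA genes took 0.726% to 0.812% of their counts, against 0.0165% to 0.0247% in the other groups, and processed pseudogenes took 0.986% to 0.997%, against 0.150% to 0.2803%. Tests were therefore also run with offsets for GC content and exon length, and those values are given for the 9 genes wherever they end or make a call, turn a direction or move a value by over 1.5 times. Markers of pluripotent cells, the labelled cell type, were detected in each group, at a summed level of 1498 to 1682 CPM (counts per 1000000) in EBD2, 1060 to 1137 CPM in EBD5 and 968 to 1103 CPM in EBD6. These 6 markers did not move together. From EBD2 to EBD5, 1 rose and 3 fell (0 and 4 with offsets), where 34.9% and 35.1% of all tested genes rose and fell. From EBD5 to EBD6, 1 rose and 3 fell (3 and 2 with offsets), against 36.9% and 33.3% of all. The 6 visceral endoderm markers summed to 6.85 to 9.98 CPM in EBD2, 2237 to 2272 CPM in EBD5 and 1176 to 1246 CPM in EBD6. These are bulk libraries, so fewer cells of a type and less RNA per cell cannot be told apart.

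Lif, Stat3 and Socs3 rose at both steps, from EBD2 to EBD5 and from EBD5 to EBD6. Lifr rose to EBD5 and kept most of that level in EBD6, and Gbx2 fell to EBD5. Without offsets Gbx2 rose again to EBD6, a call that ended with GC and length offsets (log2 fold change 0.09, adjusted p = 0.665 by edgeR). Il6st and Jak1 differed by at most 1.22-fold in each comparison without offsets, which moved the rise of Il6st from EBD5 to EBD6 to a log2 fold change of 0.44. Pim1 was lower in EBD6 than in EBD2, and Osmr was not detected in EBD2 and reached 9 to 17 counts per library in EBD6. The plot of each gene in the 9 libraries shows these patterns.

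**Figure D1:**
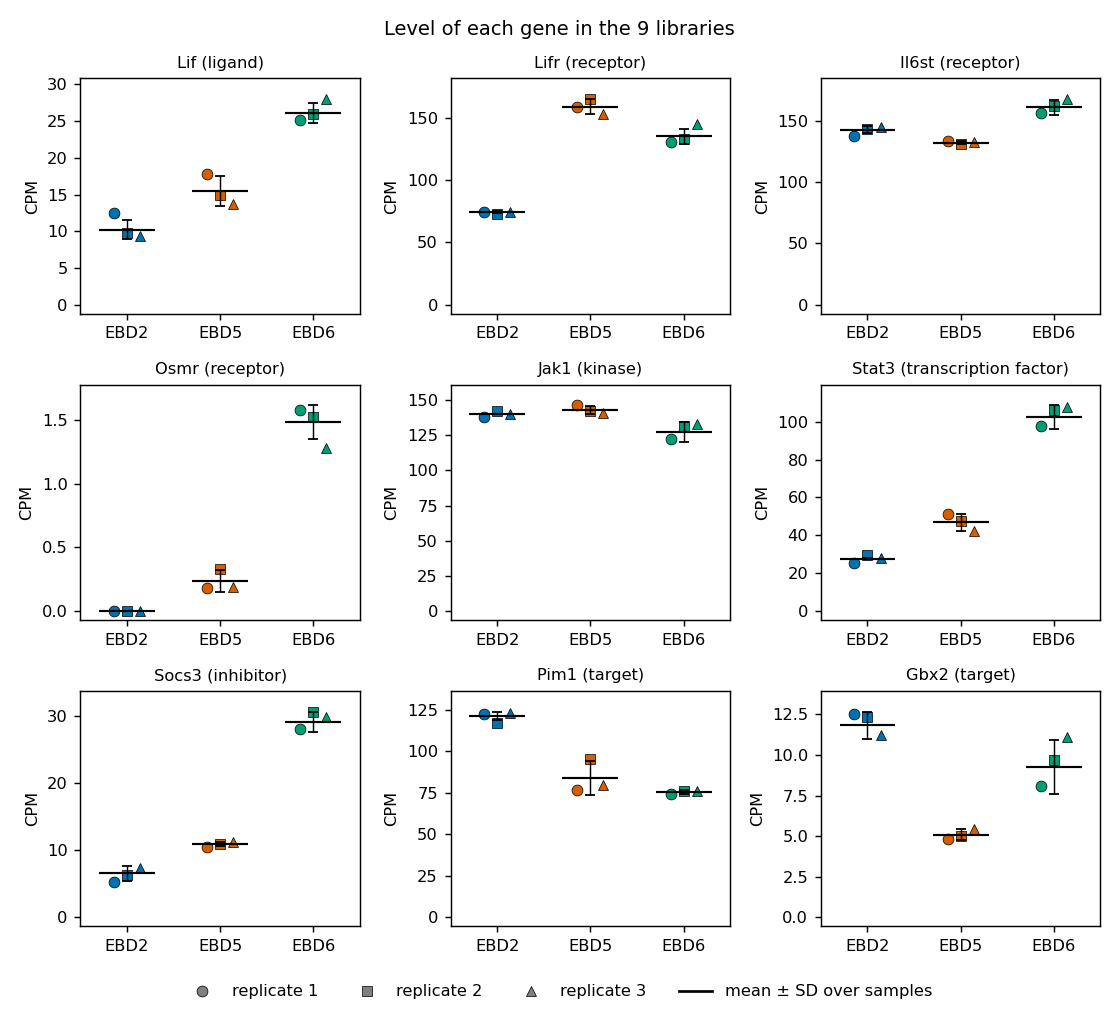
CPM (counts per 1000000, TMM-scaled) of the 9 genes in each library, with 1 panel per gene and its own linear axis; symbols mark the replicate, and lines with bars give the mean ± SD over samples (n = 2, 3 and 2). Stat3 climbs from a mean of 27.7 CPM to 46.8 CPM and 102 CPM, Lifr is highest in EBD5, and Jak1 stays between 122 and 146 CPM.

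Because Lif, Stat3 and Socs3 moved together, the DNA just upstream of their RefSeq start sites (GRCm38.p6) is shown. STAT factors bind sites of the form TTCNNNGAA, which reads the same on both strands. This motif was searched in the 250 bases upstream of every start site, together with the looser TTANNNGAA on either strand, which does not overlap it. Only the stretches that lie in no annotated exon are printed, 5′ to 3′ on the strand of the gene, with matches in capitals. The Lif stretch is chr11:4257318-4257556 on the plus strand, the Stat3 stretch chr11:100939541-100939790 on the minus strand, and the Socs3 stretch chr11:117969452-117969616 on the minus strand.
Lif: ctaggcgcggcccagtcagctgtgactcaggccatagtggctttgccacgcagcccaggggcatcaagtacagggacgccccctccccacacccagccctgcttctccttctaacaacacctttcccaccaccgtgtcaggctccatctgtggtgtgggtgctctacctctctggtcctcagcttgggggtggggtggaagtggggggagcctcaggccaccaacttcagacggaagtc
Stat3: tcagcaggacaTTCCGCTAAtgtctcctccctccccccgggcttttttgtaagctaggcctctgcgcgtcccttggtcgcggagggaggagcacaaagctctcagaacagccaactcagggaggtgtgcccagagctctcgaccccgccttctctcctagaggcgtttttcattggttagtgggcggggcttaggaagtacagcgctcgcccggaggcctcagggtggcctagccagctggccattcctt
Socs3: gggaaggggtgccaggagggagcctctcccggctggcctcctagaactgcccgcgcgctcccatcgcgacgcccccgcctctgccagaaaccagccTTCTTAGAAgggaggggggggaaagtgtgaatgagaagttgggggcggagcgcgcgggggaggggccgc
The capitals mark TTCTTAGAA in Socs3, which matches TTCNNNGAA at bases -154 to -146 from the start site, and TTCCGCTAA in Stat3, which matches TTANNNGAA on the reverse strand at bases -239 to -231. The Lif window held neither motif. Over 11 windows of the 9 genes, Socs3 was the 1 gene with TTCNNNGAA, a motif found in 7.02% of 32841 promoter windows of that length. TTANNNGAA stood upstream of 3 genes, Stat3, Il6st (TTACGGGAA, bases -120 to -112) and Osmr (TTCCCGTAA, bases -35 to -27), and in 9.08% of all windows. Such matches describe these letters alone, and no binding was measured.

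Lif encodes the ligand, a secreted cytokine of the interleukin-6 family. Its gene (ENSMUSG00000034394) lies on chromosome 11 from 4257557 to 4272514 in mm10, plus strand. In replicates 1, 2 and 3, Lif stood at 12.5, 9.76 and 9.30 CPM in EBD2, at 17.7, 15.0 and 13.7 CPM in EBD5, and at 25.1, 26.0 and 28.0 CPM in EBD6. No library of a later group fell below one of an earlier group, although EBD2 replicate 1 and EBD5 replicate 3 came within little of each other. The means were 10.2 ± 1.28 CPM (SD, n = 2), 15.5 ± 2.04 CPM (n = 3) and 26.1 ± 1.4 CPM (n = 2). By the edgeR quasi-likelihood test with Benjamini-Hochberg adjustment over 16168 genes, Lif rose 1.49-fold to EBD5 (log2 fold change 0.57 ± 0.15 SE, adjusted p = 0.00521). It rose a further 1.70-fold to EBD6 (0.76 ± 0.13, adjusted p = 0.00029 by edgeR). With offsets for GC content and length the second step shrank to a log2 fold change of 0.36 (adjusted p = 0.0163 by edgeR).

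Lifr encodes the receptor chain that binds LIF itself (ENSMUSG00000054263, chromosome 15 from 7090614 to 7197489, plus strand). It was read at 74.2, 73.0 and 74.8 CPM in the EBD2 libraries, at 158.9, 165.2 and 153.0 CPM in EBD5, and at 130.8, 133.2 and 145.0 CPM in EBD6. The EBD5 libraries were highest and the EBD2 libraries lowest, with no overlap between groups. Lifr rose 2.15-fold from EBD2 to EBD5 (log2 fold change 1.10 ± 0.06, adjusted p = 8.96e-08 by edgeR) and was 1.83-fold higher in EBD6 than in EBD2 (0.87 ± 0.07, adjusted p = 7.89e-07 by edgeR). The step from EBD5 to EBD6 was 1.17-fold downward (log2 fold change -0.23 ± 0.06, adjusted p = 0.00464 by edgeR), but with GC and length offsets it turned to 0.03 (adjusted p = 0.68 by edgeR). The summed CPM of visceral endoderm markers had the same order of groups, and all 6 markers, none at 0 in any group, rose from EBD2 to EBD5. They did not move together from EBD5 to EBD6, where 2 rose and 3 fell (3 and 3 with offsets): Cubn and Apob, which made up most of the sum, went from means of 1121 and 867 CPM to 405 and 488 CPM, and Afp from 71.4 to 137 CPM. The 6 markers of primitive and parietal endoderm, none at 0 in any group, summed to 37.4 to 37.5 CPM in EBD2, 1244 to 1303 CPM in EBD5 and 1057 to 1066 CPM in EBD6, and all 6 rose from EBD2 to EBD5, while 3 rose and 2 fell from EBD5 to EBD6 (2 and 3 with offsets), and Dab2 went from a mean of 823 CPM to 454 CPM. Afp, Ttr, Apoa1, Amn, Sox7 and Sox17 had at most 6 counts in any EBD2 library. They passed the filter on low counts only through the later groups, which favoured their rise. Over all tested genes, 34.9% rose and 35.1% fell from EBD2 to EBD5, and 36.9% rose and 33.3% fell from EBD5 to EBD6. The part of endoderm cells in the level of Lifr was not tested.

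Il6st, the gene of gp130 (ENSMUSG00000021756, chromosome 13 from 112464070 to 112510086, plus strand), varied much less. Its values were 137.8, 143.6 and 145.1 CPM in EBD2, 133.7, 130.8 and 132.5 CPM in EBD5, and 156.8, 162.2 and 167.9 CPM in EBD6. All EBD6 libraries were above all others, and the EBD5 libraries lay just under the EBD2 libraries. Il6st rose 1.22-fold from EBD5 to EBD6 (log2 fold change 0.29 ± 0.06, adjusted p = 0.00071 by edgeR). EBD6 was 1.13-fold above EBD2 (0.18 ± 0.06, adjusted p = 0.0210 by edgeR), a call that ended under DESeq2 (adjusted p = 0.152), with EBD2 and EBD6 fitted alone (adjusted p = 0.0618 by edgeR) and without EBD2 replicate 3 (adjusted p = 0.0526 by edgeR). The difference between EBD5 and EBD2 did not pass the test (-0.11 ± 0.06, adjusted p = 0.103 by edgeR) but did with GC and length offsets (-0.29, adjusted p = 0.000648 by edgeR), and the offsets moved the later step to 0.44.

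Since LIFR and gp130 work as a pair, their messenger RNAs were also set against each other within each library, per kilobase of exon. Il6st stood at 1.80 to 1.91 times the Lifr level in EBD2, at 0.768 to 0.841 times in EBD5 and at 1.125 to 1.182 times in EBD6. The 3 ranges did not overlap, and Il6st was the lower of the pair in EBD5 only.

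Osmr encodes the partner of gp130 for oncostatin M (ENSMUSG00000022146, chromosome 15 from 6813577 to 6874969, minus strand). It had 0 counts in each EBD2 library, 1, 2 and 1 counts in EBD5, and 9, 17 and 16 counts in EBD6. The EBD6 libraries, at 1.58, 1.52 and 1.28 CPM, were above every other library, yet the level stayed near the limit of detection. Osmr did not pass the filter on low counts and was not tested. Against the 3 counts that 0 in the EBD2 group allows, EBD6 was at least 8.47-fold higher, and EBD6 exceeded EBD5 by a count ratio of 6.05 (95% counting interval 2.19 to 23.2). Its ligand gene Osm, which is outside the 9 genes, had 49 counts in EBD2, 4 in EBD5 and 57 in EBD6. The fall of Osm to EBD5 (log2 fold change -3.48 ± 0.45, adjusted p = 3.83e-05 by edgeR) and its rise to EBD6 (3.0 ± 0.46, adjusted p = 0.000132 by edgeR) both passed the test.

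Jak1 encodes the Janus kinase that gp130 mainly relies on (ENSMUSG00000028530, chromosome 4 from 101152367 to 101265282, minus strand). Jak1 was nearly level: 138.0, 142.6 and 140.1 CPM in EBD2, 146.4, 142.1 and 141.0 CPM in EBD5, and 122.2, 132.0 and 133.0 CPM in EBD6. The EBD2 and EBD5 libraries overlapped, and the EBD6 libraries lay below both. The difference between EBD5 and EBD2 was a log2 fold change of 0.03 ± 0.06 (adjusted p = 0.664 by edgeR; -0.0026 with GC and length offsets). Jak1 fell 1.118-fold from EBD5 to EBD6 (-0.16 ± 0.06, adjusted p = 0.0283 by edgeR), and this call ended with GC and length offsets (-0.07, adjusted p = 0.331 by edgeR), under DESeq2 (adjusted p = 0.0632), and without EBD5 replicate 1 (adjusted p = 0.0858 by edgeR) or EBD6 replicate 1 (adjusted p = 0.173 by edgeR). Against EBD2, EBD6 was at -0.13 ± 0.06 (adjusted p = 0.0864 by edgeR), or -0.07 with GC and length offsets (adjusted p = 0.341 by edgeR).

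The other Janus kinases were read per kilobase of exon to place Jak1 among them. Jak1 made up 51.4% to 52.2% of the summed level of the 4 kinases in EBD2, 47.9% to 52.1% in EBD5 and 38.0% to 40.8% in EBD6. Of the 4 kinases, 1 rose and none fell from EBD2 to EBD5 (2 and none with offsets) and from EBD2 to EBD6, and 2 rose and 2 fell from EBD5 to EBD6 (1 and 1 with offsets). Over all tested genes, 70.0%, 66.1% and 70.2% were called in these comparisons. The lower share in EBD6 came with a rise of Jak3, the kinase best known from lymphocyte cytokine receptors, which averaged 10.1 CPM in EBD2, 10.1 CPM in EBD5 and 57.5 CPM in EBD6. Jak3 rose from EBD5 to EBD6 by a log2 fold change of 2.52 ± 0.15 (adjusted p = 1.26e-07 by edgeR), or 1.51 with GC and length offsets.

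Stat3 encodes the transcription factor at the end of the cascade (ENSMUSG00000004040, chromosome 11 from 100885098 to 100939540, minus strand). Its libraries stood at 25.4, 29.4 and 27.9 CPM in EBD2, at 51.1, 47.3 and 42.2 CPM in EBD5, and at 97.8, 106.0 and 107.5 CPM in EBD6. The 3 groups were far apart, with means of 27.7 ± 0.333 CPM (SD, n = 2), 46.8 ± 4.47 CPM (n = 3) and 102 ± 6.37 CPM (n = 2). Stat3 rose 1.70-fold to EBD5 (log2 fold change 0.76 ± 0.10, adjusted p = 3.95e-05 by edgeR) and 2.19-fold from EBD5 to EBD6 (1.13 ± 0.08, adjusted p = 6.35e-07 by edgeR). Over both steps the rise was 3.72-fold (1.90 ± 0.10, adjusted p = 3.66e-08 by edgeR), and the offsets for GC content and length left it at 1.73. Stat3 passed the test in all 3 comparisons under each of the 18 alternative settings that were run.

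Stat3 also took a growing share of the STAT family. Per kilobase of exon it made up 5.55% to 6.54% of the summed level of 7 STAT genes in EBD2, 12.6% to 15.0% in EBD5 and 27.0% to 27.7% in EBD6. Of the 7 genes, 2 rose and 4 fell from EBD2 to EBD5 (3 and 4 with offsets; 34.9% and 35.1% of all tested genes), 2 rose and 1 fell from EBD5 to EBD6 (3 and 3 with offsets; 36.9% and 33.3% of all), and 2 rose and 3 fell from EBD2 to EBD6 (33.7% and 32.3% of all). Stat5b, which encodes a STAT used by growth hormone and other cytokine receptors, rose from EBD2 to EBD5 (log2 fold change 1.09 ± 0.13, adjusted p = 2.56e-05 by edgeR) and was not called from EBD5 to EBD6. Stat4 and Stat6, known from T helper cell signalling, fell from EBD2 to EBD5 by 1.70 ± 0.17 and 0.84 ± 0.08 on the log2 scale (adjusted p = 6.07e-06 and 4.44e-06 by edgeR), and the fall of Stat6 was -0.55 with offsets. Stat2, an interferon response factor, fell at both steps, to -1.09 ± 0.07 in EBD6 against EBD2 (adjusted p = 2.71e-07 by edgeR).

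**Figure D2:**
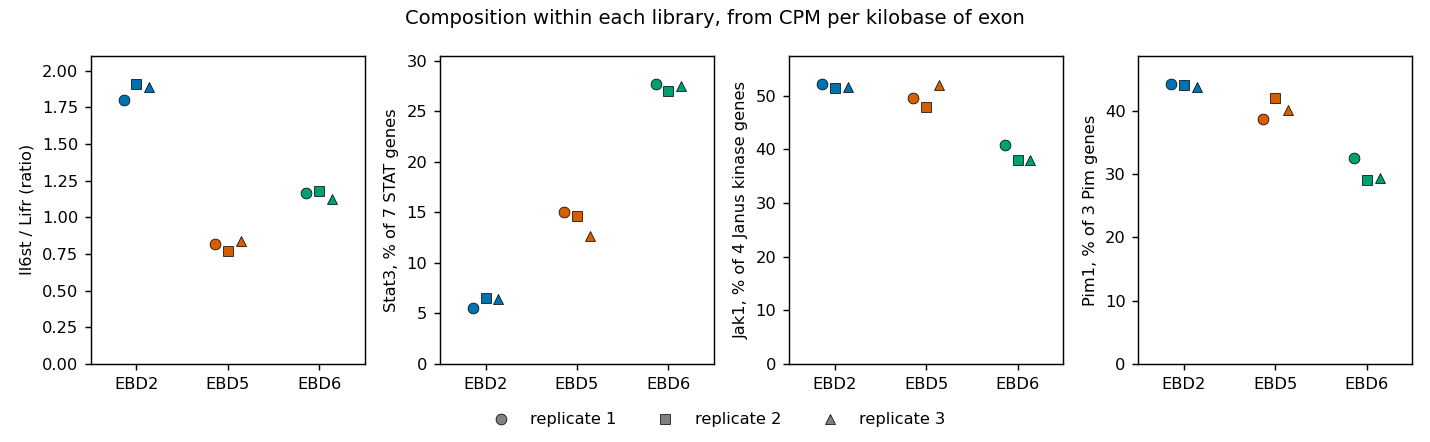
Composition within each of the 9 libraries, from CPM per kilobase of merged exons: the ratio of Il6st to Lifr, Stat3 as a percentage of 7 STAT genes, Jak1 of 4 Janus kinase genes and Pim1 of 3 Pim genes, on linear axes from 0; symbols mark the replicate. The share of Stat3 goes from under 6.54% in EBD2 to at least 27.0% in EBD6, and the ratio of Il6st to Lifr is lowest in EBD5.

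Socs3 encodes the inhibitor that binds gp130 and Janus kinases and stops the signal (ENSMUSG00000053113, chromosome 11 from 117966079 to 117970047, minus strand). In EBD2 it was at 5.24, 6.34 and 7.37 CPM, in EBD5 at 10.6, 10.99 and 11.3 CPM, and in EBD6 at 28.1, 30.7 and 29.9 CPM. Each group lay wholly above the one before it. Socs3 rose 1.71-fold to EBD5 (log2 fold change 0.78 ± 0.16, adjusted p = 0.00106 by edgeR) and 2.68-fold from EBD5 to EBD6 (1.42 ± 0.12, adjusted p = 1.95e-06 by edgeR). From EBD2 to EBD6 the rise was 4.59-fold (2.20 ± 0.14, adjusted p = 2.21e-07 by edgeR), the widest of the 8 tested genes. Offsets for GC content and length kept both rises but moved most of the change to the first step, with log2 fold changes of 1.55 to EBD5 and 0.41 to EBD6.

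Per kilobase of exon and without offsets, the ratio of Socs3 to Stat3 was 0.681 to 0.871 in EBD2, 0.682 to 0.883 in EBD5 and 0.918 to 0.953 in EBD6, so the first pair of ranges overlapped and EBD6 lay above both. The offsets turned this order: with them Socs3 rose more than Stat3 to EBD5 (log2 fold changes of 1.55 and 0.89) and less than Stat3 from EBD5 to EBD6 (0.41 and 0.84). The difference between the genes was not tested.

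Markers of other cells also moved between EBD5 and EBD6. Over all tested genes, 36.9% rose and 33.3% fell in that comparison, which is the background for the counts given here. Trophoblast markers summed to 5.27 to 8.62 CPM in EBD2, with Cdx2, Elf5 and Prl3d1 at 0, to 11.99 to 14.1 CPM in EBD5, with Prl3d1 at 0, and to 73.5 to 77.6 CPM in EBD6, and all 5 tested markers rose from EBD5 to EBD6. Mesoderm markers summed to 5.27 to 7.44 CPM in EBD2, 8.09 to 9.14 CPM in EBD5, with Mesp1 at 0, and 97.9 to 102 CPM in EBD6, with 3 of 4 tested markers rising from EBD5. Fibroblast markers, which would also mark feeder cells, summed to 24.4 to 24.8 CPM in EBD2, with Postn at 0, 16.8 to 22.2 CPM in EBD5 and 43.9 to 54.4 CPM in EBD6, and 4 of 5 tested markers rose from EBD5 and 1 fell (3 and 1 with offsets). The markers of endothelium and blood summed to 11.8 to 13.2 CPM, 20.3 to 22.4 CPM and 58.8 to 73.2 CPM in the 3 groups, with Hbb-bh1 at 0 in EBD2 and EBD5, and 2 of 4 tested markers rose from EBD5 and 1 fell (2 and 2 with offsets). Cdx2, Tpbpa, Prl3d1, Foxf1, Kdr, Cdh5, Col1a1 and Postn had at most 15 counts in any EBD2 or EBD5 library. They passed the filter on low counts only through EBD6, so their rise to EBD6 followed from the filter. The part of the marked cells in the levels of Stat3, Socs3, Lif and Osmr was not tested.

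Pim1 encodes a survival kinase whose gene is a STAT3 target (ENSMUSG00000024014, chromosome 17 from 29490753 to 29496112, plus strand). Unlike Stat3, it was highest in EBD2, at 122.3, 116.9 and 123.0 CPM, against 76.3, 95.3 and 79.4 CPM in EBD5 and 74.3, 75.8 and 76.1 CPM in EBD6. EBD5 replicate 2 was the highest of its group, and EBD5 replicate 1 came close to the EBD6 libraries without overlapping them. Pim1 fell 1.61-fold from EBD2 to EBD6 (log2 fold change -0.69 ± 0.09, adjusted p = 5.53e-05 by edgeR). Without offsets the fall lay between EBD2 and EBD5 (-0.53 ± 0.09, adjusted p = 0.000203 by edgeR) and the step to EBD6 did not pass (-0.16 ± 0.09, adjusted p = 0.134 by edgeR). With GC and length offsets this was the other way round, at -0.11 (adjusted p = 0.30 by edgeR) and -0.78 (adjusted p = 3.42e-05 by edgeR), so the total fall held in both and its timing did not. Within the Pim family, per kilobase of exon, Pim1 made up 43.8% to 44.3% of the 3 genes in EBD2, 38.7% to 42.1% in EBD5 and 29.1% to 32.5% in EBD6.

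Gbx2 encodes a homeobox factor that is a STAT3 target in stem cells and also a patterning gene of the early brain (ENSMUSG00000034486, chromosome 1 from 89927956 to 89931179, minus strand). It was at 12.5, 12.4 and 11.23 CPM in EBD2, at 4.84, 4.997 and 5.46 CPM in EBD5, and at 8.08, 9.68 and 11.1 CPM in EBD6. The EBD5 libraries were lowest, and the EBD6 libraries reached almost to those of EBD2. Gbx2 fell 2.34-fold to EBD5 (log2 fold change -1.23 ± 0.18, adjusted p = 0.000104 by edgeR) and rose 1.89-fold to EBD6 (0.91 ± 0.18, adjusted p = 0.000786 by edgeR), while EBD6 against EBD2 did not pass the test (-0.31 ± 0.17, adjusted p = 0.118 by edgeR). GC and length offsets left the fall at -0.58 (adjusted p = 0.00863 by edgeR), ended the call on the rise (0.09, adjusted p = 0.665 by edgeR) and made one for EBD6 against EBD2 (-0.49, adjusted p = 0.0111 by edgeR). The antisense gene D130058E05Rik shares 946 exon bases with Gbx2, had 503 counts in all against 593 for Gbx2, and was also highest in EBD2, at a mean of 15.5 CPM, then 3.02 CPM and 4.87 CPM. Whether counting used strand is not given in the sources used here, and without it the reads of this pair cannot be told apart. Neuroectoderm markers, none at 0, also summed lowest in EBD5, at 66.1 to 74.4 CPM, against 142 to 151 CPM in EBD2. Unlike Gbx2 they were highest in EBD6, at 182 to 187 CPM, where Six3 and Zic1 averaged 29.6 and 15.3 CPM, against 0.336 and 0.295 CPM in EBD2. From EBD2 to EBD5, 3 of 5 fell and 1 rose, and all 5 rose from EBD5 to EBD6 (4 with offsets). Of all tested genes, 35.1% fell and 34.9% rose from EBD2 to EBD5, and 36.9% rose from EBD5 to EBD6. Zic1, with at most 5 counts in any EBD2 or EBD5 library, passed the filter only through EBD6. The part of neuroectoderm cells in the level of Gbx2 was not tested.

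**Figure D3:**
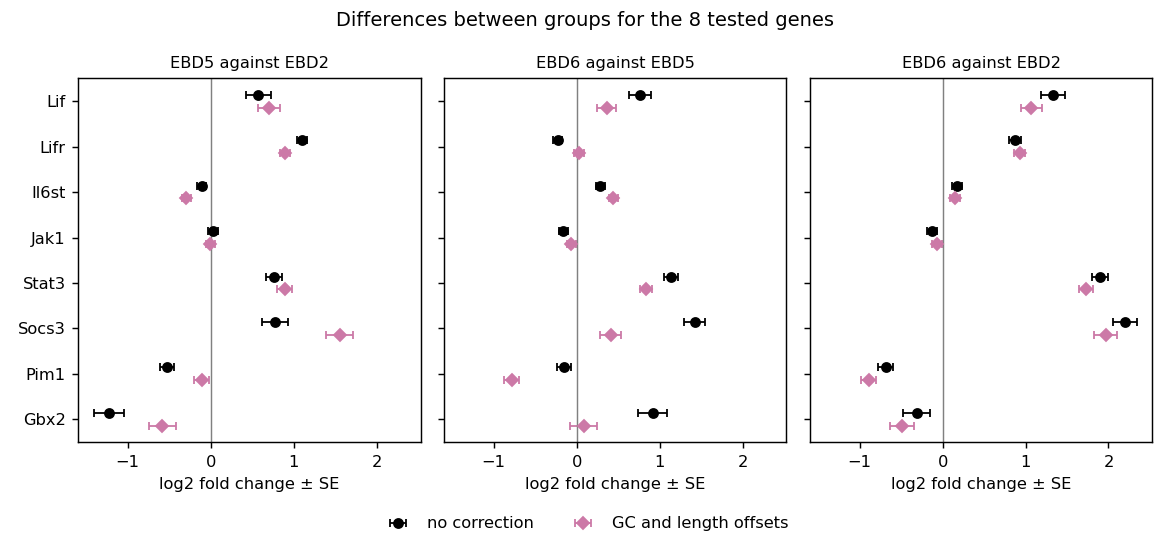
Log2 fold change ± SE of the 8 tested genes in the 3 comparisons, from the edgeR fit without correction (black circles) and with GC and length offsets (pink diamonds); the vertical line marks no difference. Stat3, Lif and Socs3 are to the right of the line in each panel under both fits. The pink points for Socs3, Pim1 and Gbx2 move away from the black ones in the first and second panels.

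The levels of the 9 genes were put in order per kilobase of exon. In EBD2, Pim1 was highest, at a mean of 36.1 CPM per kilobase, followed by Jak1 at 19.4, Il6st at 12.9, Lifr at 6.88 and Gbx2 at 5.44, with Stat3 at 2.90, Lif at 2.35, Socs3 at 2.28 and Osmr at 0. In that group the libraries of the neighbours Stat3 and Lif overlapped, as did those of Lif and Socs3. In EBD5, Lifr at 14.8 CPM per kilobase had passed Il6st at 11.9, Gbx2 at 2.34 was below Lif at 3.56, and the libraries of Socs3, at 3.79, overlapped those of Lif. In EBD6 the lower end had moved up, with Stat3 at 10.7 and Socs3 at 10.1 CPM per kilobase, next to Lifr at 12.5, Il6st at 14.5 and Jak1 at 17.6, and the libraries of Stat3 and Socs3 overlapped. Pim1 was still highest, at 22.3 CPM per kilobase, and Osmr lowest, at 0.123.

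Counted over the 8 tested genes, 4 rose and 2 fell from EBD2 to EBD5, where edgeR called 70.0% of all 16168 genes (34.9% higher, 35.1% lower). From EBD5 to EBD6, 5 rose and 2 fell, against 70.2% called over all genes (36.9% higher, 33.3% lower), and from EBD2 to EBD6, 5 rose and 1 fell, against 66.1% (33.7% higher, 32.3% lower). The share of the 8 genes called was thus near the background in each comparison. The CPM of the 3 libraries of each group did not overlap for 7 of the 8 tested genes in EBD5 against EBD2 and for 8 of 8 in the other comparisons, against 77.8%, 76.0% and 74.3% of all tested genes. The median log2 fold changes of the 8 genes were 0.30, 0.52 and 0.53, against -0.01, 0.04 and 0.01 over all tested genes. Tested against a fold of 1.5 rather than no change, 34.7% of all genes were called in EBD5 against EBD2 (18.4% higher, 16.3% lower), 32.9% in EBD6 against EBD5 (17.6% higher, 15.3% lower) and 30.4% in EBD6 against EBD2 (16.4% higher, 14.0% lower). Under that test Lifr and Stat3 stayed higher and Gbx2 lower in EBD5 against EBD2, and Stat3, Socs3 and Gbx2 stayed higher in EBD6 against EBD5. In EBD6 against EBD2 it called Lif, Lifr, Stat3 and Socs3 higher.

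Genes that work beside these 9 were read in 7 lists of 60 pathway genes in all, 51 of them outside the 9. Of the 47 of these that were tested, 17 rose and 20 fell from EBD2 to EBD5, with a median log2 fold change of -0.13 (34.9% and 35.1% of all tested genes rose and fell). From EBD5 to EBD6, 25 rose and 11 fell (median 0.43; 36.9% and 33.3% of all), and from EBD2 to EBD6, 25 rose and 10 fell (median 0.31; 33.7% and 32.3% of all). These shares over all tested genes are the background for the counts of each list that follows. With GC and length offsets the first counts became 18 and 20, and the later ones 24 and 14, and 20 and 12. The plot of the 7 lists shows the spread within each.

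**Figure D4:**
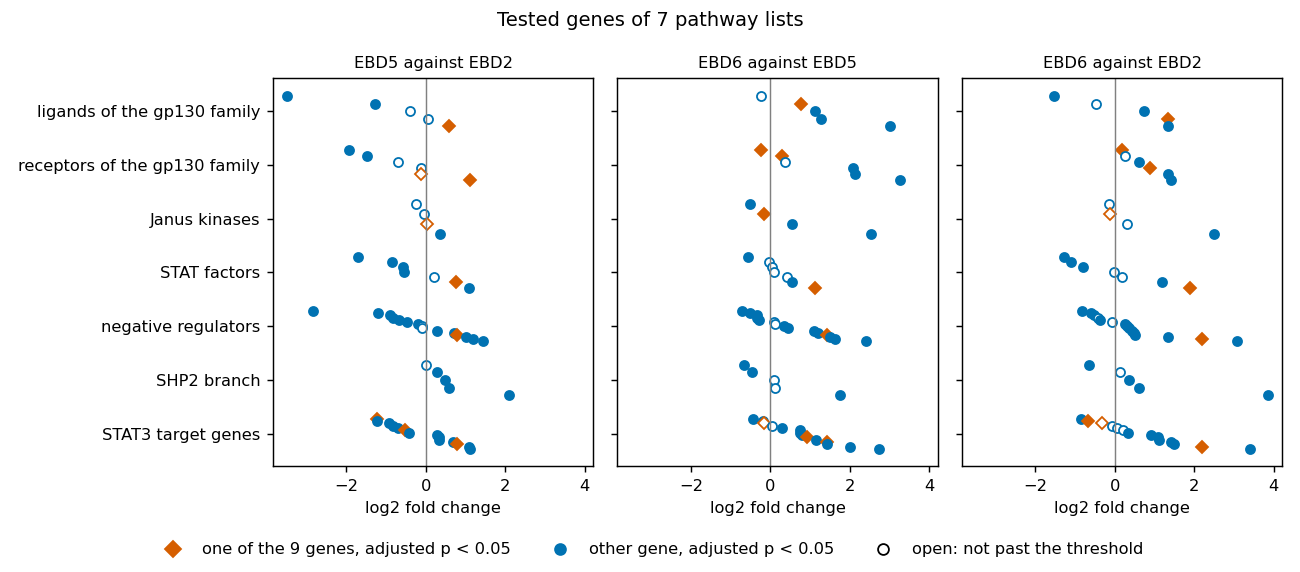
Log2 fold change (without correction) of every tested gene in 7 pathway lists, with 1 panel per comparison; diamonds are genes of the 9, circles are other genes, and open symbols did not pass an adjusted p under 0.05. Ligand and receptor genes reach below -1 in EBD5 against EBD2 and above 2 in EBD6 against EBD5, and Gab2 and Junb lie furthest to the right in EBD6 against EBD2.

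Among ligands of the gp130 family, 5 of 8 were tested. From EBD2 to EBD5, Lif rose, Osm and Clcf1 fell and the other 2 were not called, and from EBD5 to EBD6, 4 rose and none fell without offsets, while 1 fell with them. Ctf1, the gene of cardiotrophin-1, and Cntf, the gene of ciliary neurotrophic factor, rose from EBD5 to EBD6 by 1.11 ± 0.22 and 1.28 ± 0.28 on the log2 scale (adjusted p = 0.00101 and 0.0015 by edgeR), or 0.55 and 1.98 with offsets. Clcf1, which encodes a cardiotrophin-like cytokine, was lower in EBD6 than in EBD2 by a log2 fold change of -1.52 ± 0.27 (adjusted p = 0.000443 by edgeR). Il6 had 0 counts in EBD2 and EBD5 and 4 in EBD6, and Il27 had 1, 0 and 8.

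Of 6 tested receptor genes, Lifr rose and Il6ra and Cntfr fell from EBD2 to EBD5 (1 and 3 with offsets), 4 rose and Lifr fell from EBD5 to EBD6 (4 and none with offsets), and 5 rose and none fell from EBD2 to EBD6. Il6ra, which confers interleukin-6 binding, had 46, 11 and 197 counts in EBD2, EBD5 and EBD6, and rose from EBD5 to EBD6 by 3.27 ± 0.42 on the log2 scale (adjusted p = 3.39e-05 by edgeR). With at most 5 counts in any EBD5 library, Il6ra passed the filter on low counts only through EBD6, which favoured its rise. Cntfr, the ciliary neurotrophic factor receptor, averaged 23.8, 8.70 and 35.9 CPM, a rise of 2.07 ± 0.14 from EBD5 to EBD6 (adjusted p = 3.42e-07 by edgeR) that was 1.06 with offsets.

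Of 15 negative regulators, 6 rose and 7 fell from EBD2 to EBD5 (5 and 8 with offsets), 8 rose and 5 fell from EBD5 to EBD6 (10 and 2 with offsets), and 9 rose and 4 fell from EBD2 to EBD6 (6 and 5 with offsets). Cish, a STAT5-induced relative of Socs3, rose at both steps, from a mean of 2.56 CPM to 6.95 and 21.1 CPM (EBD6 against EBD2 3.08 ± 0.20, adjusted p = 2.35e-07 by edgeR). Socs1, which inhibits Janus kinases directly, had 54, 7 and 70 counts in EBD2, EBD5 and EBD6. It fell by 2.84 ± 0.41 on the log2 scale to EBD5 (adjusted p = 9.75e-05 by edgeR) and rose by 2.41 ± 0.41 to EBD6 (adjusted p = 0.00032 by edgeR, 1.40 with offsets). Both changes rest on an EBD5 level near the limit of detection. Socs5 rose to EBD5 and was 1.33 ± 0.12 above EBD2 in EBD6 (adjusted p = 3.64e-06 by edgeR). The direction among regulators was therefore not shared. At the first step, without offsets, Socs3, Cish and Socs5 were among the 6 that rose, and Socs1 and Pias4 among the 7 that fell.

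In the SHP2 branch, which carries gp130 signals to the MAP kinase cascade, 4 of 5 genes rose and none fell from EBD2 to EBD5 (4 and 1 with offsets), 1 rose and 2 fell from EBD5 to EBD6 (1 and 3 with offsets), and 3 rose and 1 fell from EBD2 to EBD6 (2 and 1 with offsets). Gab2, a docking protein for SHP2, went from a mean of 1.74 CPM to 7.997 and 26.9 CPM (EBD6 against EBD2 3.85 ± 0.23, adjusted p = 1.25e-07 by edgeR). It had at most 13 counts in any EBD2 library. Gab2 passed the filter on low counts only through the later groups, which favoured its rise. Ptpn11, the gene of SHP2, rose to EBD5 by 0.48 ± 0.06 (adjusted p = 1.75e-05 by edgeR), and Sos1, a Ras activator, was lower in EBD6 than in EBD2 by a log2 fold change of -0.66 ± 0.06 (adjusted p = 3.98e-06 by edgeR).

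The list of 14 STAT3 targets includes Socs3, Pim1 and Gbx2. From EBD2 to EBD5, 7 rose and 7 fell (7 and 4 with offsets), from EBD5 to EBD6, 10 rose and 2 fell (6 and 5 with offsets), and from EBD2 to EBD6, 8 rose and 2 fell (7 and 4 with offsets). Junb, a component of AP-1, went from a mean of 4.94 CPM to 7.998 and 52.4 CPM (EBD6 against EBD2 3.41 ± 0.14, adjusted p = 5.68e-09 by edgeR). Myc, a growth regulator, fell to EBD5 by 0.92 ± 0.12 on the log2 scale and rose to EBD6 by 1.996 ± 0.11 (adjusted p = 1.06e-07 by edgeR). Klf4, a naive pluripotency factor, averaged 17.4, 22.5 and 49.4 CPM and was 1.49 ± 0.12 higher in EBD6 than in EBD2 (adjusted p = 1.52e-06 by edgeR). Targets of STAT3 thus did not move as 1 group at the first step: without offsets, Socs3 and Junb rose while Pim1, Gbx2 and Myc fell. With offsets Socs3 still rose and Gbx2 still fell (1.55 and -0.58), but Pim1 was not called (-0.11, adjusted p = 0.30 by edgeR).

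Over the 9 libraries, the genes whose gene-centred log2 CPM lay nearest to a member were also listed, among 10874 genes with a mean of at least 10 CPM. For Lifr these were Tirap, Colec12 and Fzd5, with root mean square differences of 0.0574, 0.0646 and 0.0674 log2 units. Nearest to Socs3 were Phf19 at 0.141, Tnfrsf12a at 0.142 and ENSMUSG00000074873 at 0.144, and nearest to Gbx2 were Zfp335 at 0.0777, Zyg11a at 0.0848 and Gm21781 at 0.0879. The likeness is a description over libraries that share 3 groups.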

How the data were processed

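For 9 libraries of polyadenylated RNA, the deposited values are expected counts, estimates of reads per gene that can be fractional. Per the labels' protocols, the libraries were made with a KAPA RNA Hyperprep kit from RNA captured on oligo-dT beads. STAR 2.7.10a, cutadapt 1.18, RSEM 1.3.30, DESeq2 1.38.3, edgeR 3.40.2 and the build mm10 are listed without roles, per the submitters' processing notes. Neither the annotation release nor the strand setting is given in the sources used here. A second deposited table repeated the EBD6 values in 54233 identical rows and was not used for values. Between 90.9% and 94.6% of values per library were whole. They were rounded before testing, and 1 row that names no gene (at most 0.0157% of a library) was left out.

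Gene names, positions and exon lengths came from GENCODE M21 (mm10), which held 99.7% of the IDs. A chi-square test on genes that reached 20 counts in a pair compared replicates. EBD2 replicates 1 and 2 (0.949 per gene) and EBD6 replicates 2 and 3 (1.01) were each summed, which left 7 samples, while EBD5 replicates 1 and 3 (1.21) were kept apart. After filterByExpr (16168 genes) and TMM scaling, edgeR 4.0.16 in R 4.3.3 fitted the 3 groups together (quasi-likelihood F test, 4 residual degrees of freedom, biological coefficient of variation 6.7%). Calls were made at a Benjamini-Hochberg adjusted p under 0.05, and the SE is the log2 fold change divided by the square root of F. CPM uses TMM-scaled library sizes and enters the likeness of patterns as log2 with 0.5 CPM added. Bounds and intervals of counts (3 counts over a group of 0, 95%) cover counting error only. Scripts were tested on simulated data.

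The 18 alternatives were DESeq2 (1.42.0), its size factors, no filter, 9 separate libraries, EBD5 replicates 1 and 3 as 1 sample, a replicate block, GC and length offsets (10 by 5 bins), a test against a fold of 1.5, only the groups compared, and each of 9 libraries left out. The genes and lists were chosen with earlier results of these data known. Besides the 9 genes, the text names from each list up to 4 tested genes, those with the largest log2 fold change past the threshold in any comparison, genes with no count in a group, and the 3 genes nearest in pattern to Lifr, Socs3 and Gbx2. A gene that this rule names is not reported here. Promoter windows are from RefSeq.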

Additional observations from a re-analysis of the deposited data

How the results depend on the processing

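Stat3, Lif and Socs3 kept their direction in all 3 comparisons under each of the 18 alternatives; Jak1 in EBD5 against EBD2 (-0.0026) and Lifr in EBD6 against EBD5 (0.03) reversed with GC and length offsets, and the cause was not tested. Against a fold of 1.5, the genes called higher and lower numbered 2972 and 2634 in EBD5 against EBD2 (5641 and 5678 against no change), 2844 and 2473 in EBD6 against EBD5 (5973 and 5383), and 2655 and 2263 in EBD6 against EBD2 (5456 and 5228), since that test asks for more. Of the 9 genes it called 2 higher and 1 lower in EBD5 against EBD2, 3 higher and 0 lower in EBD6 against EBD5, and 4 higher and 0 lower in EBD6 against EBD2. The 2 of the 9 called lower in EBD6 against EBD5, Lifr and Jak1, became 1 under DESeq2, with no filter and with EBD5 replicates 1 and 3 as 1 sample. The number became 3 with 9 separate libraries, and ranged from 1 to 2 with a library left out (1 without EBD6 replicate 1). With GC and length offsets it was also 1, but neither Lifr nor Jak1 kept the call, and the gene called was Pim1 (-0.78, adjusted p = 3.42e-05 by edgeR). The 1 called lower in EBD6 against EBD2 became 2 with 9 separate libraries and with GC and length offsets. Among values of single genes, 404 kept direction and call, 20 lost the call, 6 gained it and 2 reversed. Pim1 in EBD6 against EBD5 gained it with 9 separate libraries (adjusted p = 0.0431 by edgeR) and without EBD5 replicate 1 (0.0469). Osmr entered the test with no filter (log2 fold change 6.78, adjusted p = 5.15e-08 by edgeR, EBD6 against EBD2), a fitted value that depends on the prior count. It also passed the filter with EBD5 replicates 1 and 3 as 1 sample (6.96), with EBD2 and EBD6 fitted alone (7.10) and without EBD2 replicate 3 (6.84). In those settings it passed only through EBD6, the group where Osmr was highest.

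Replicate numbers recur in each group. Correlations of deviations from the group means over 10902 genes were -0.16 to 0.12 for libraries of the same number and -0.17 to 0.20 for different numbers. With 3 libraries per group, and near-identical pairs in EBD2 and EBD6, this cannot decide whether the numbers pair libraries. A replicate block over 9 separate libraries called 5821 genes higher and 5691 lower in EBD5 against EBD2, 6071 and 5607 in EBD6 against EBD5, and 5832 and 5620 in EBD6 against EBD2, and it changed no call on the 8 tested genes. Depth limits Osmr and Il6, which have at most 17 counts in a library, and few samples limit each SD. It also limits Osm and Socs1 in EBD5, where they had 4 and 7 counts over the group.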
